A study of Mus musculus with 31 samples.

Results

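The experiment described here is the effect of a high-fat diet on the gastrocnemius, a calf muscle, of male mice that lack MuRF1. It rests on 7 of the 31 RNA sequencing libraries of the series: 3 from male MuRF1 -/- mice on the high-fat diet (animals 2510, 2511 and 2517) and 4 from male MuRF1 -/- mice on chow (animals 2434, 2428, 2559 and 2594). A library was placed by the animal number it carries and by the group named in the title that holds that number. All mice ate chow from weaning, and those of the high-fat groups were moved at 8 weeks of age to a diet labelled 45% with lard as its source. The muscle was collected at 30 weeks in every group. Male wild-type mice (4 on chow, 4 on high fat) and female MuRF1 -/- mice (4 on chow, 3 on high fat) serve below as comparisons. The labels name the knockout only as MuRF1 -/-, and all 7 libraries share it.

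MuRF1, the product of Trim63, is a muscle ubiquitin ligase that marks sarcomere proteins for degradation by the proteasome and is known for its rise in muscle atrophy. Skeletal muscle burns glucose and fatty acids, and switches between them as their supply changes. Nuclear receptors of the PPAR family respond to fatty acids and raise genes of fat oxidation. They also raise Pdk4, whose product shuts pyruvate dehydrogenase. Insulin and IGF1 act through IRS adaptor proteins to raise glucose uptake and growth, and to silence the FoxO transcription factors. Between the fibres lie fibro-adipogenic progenitors, macrophages, vessels and nerve, which make most of the matrix.

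The targeted gene was examined first. Trim63 (chr4:134315120-134329629, mm10) stood at 0.965, 6.24, 1.88 and 0.536 CPM (read counts scaled to one common total per library, here without TMM) in chow animals 2434, 2428, 2559 and 2594. It stood at 1.05, 0.469 and 1.8 CPM in high-fat animals 2510, 2511 and 2517, against 109 to 254 CPM in the wild-type libraries of the series. All 7 libraries were therefore low for Trim63, and its log2 difference by diet of -1.28 ± 0.68 was not called (adjusted p = 0.232). The labels disagree on many libraries: 19 records carry 1 animal number in the title and another in the description, and the record that holds the library of animal 2517 is itself titled female wild type on chow. That library had 1.8 CPM of Trim63 and 34.1 CPM of the Y-linked Ddx3y, within the ranges of 0.469 to 6.24 CPM and 30.3 to 52.7 CPM over the other libraries of the 7. It had 1.15 CPM of the X-linked Xist, against 0 to 0.766 CPM in those others and 67.7 to 271 CPM in the female libraries of the series. No gene was used to check the diet of a library. Total counts of the 7 libraries ran from 11393792 to 14919379. Mitochondrial genes took 8.31% to 13.8% of the counts on chow and 12.6% to 13.5% on high fat. The 10 most abundant genes took 26.6% to 30.7% on chow and 25.9% to 26.4% on high fat, ranges that do not overlap.

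The muscle of male knockouts differed between the diets in 818 of 14024 genes. On high fat 562 genes rose (4.01% of those tested) and 256 fell (1.83%), called at an adjusted p below 0.05 in edgeR's quasi-likelihood test with Benjamini-Hochberg adjustment. Growth factor, insulin pathway, macrophage and matrix genes were among those that rose, and genes of fatty acid oxidation, contractile genes and Mybph among those that fell. Of the called genes, 214 rose and 31 fell by at least 2-fold. The median log2 difference over all genes was 0.05. Every high-fat library lay above every chow library in 2025 genes (14.4%) and below in 1921 (13.7%), and 739 of the called genes were among these.

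How many genes were called rested on single libraries. Without chow animal 2594 the count was 1384. Leaving out chow animals 2434, 2428 or 2559 gave 217, 165 and 232, and leaving out high-fat animals 2510, 2511 or 2517 gave 106, 168 and 641. A total of 58 genes, 42 higher and 16 lower, were called with all 7 libraries and in each of these 7 omissions. Of the genes named below, those among the 58 are Igf1, Acot2, Pdk2, Txnip, Sesn1, Zfp36, Mybph, Myod1, Asns, Lyve1, F13a1, Cd209d, Cd209f, Cd209g, Cxcl14, C7, C3, Npnt, Slc15a5, Gbp7, Pygl, Abca6, Abca8a, Abca8b, Abca9, Atp1b2, Eef1a2, Rabep2, Atcay, Neto2 and Gamt. The calls of all other genes named for the diet effect in male knockouts were lost in at least 1 omission. A fit to the 2 groups alone called 2295 genes, 973 up and 1322 down, so the balance of the directions turned with the samples in the fit.

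**Figure D1:**
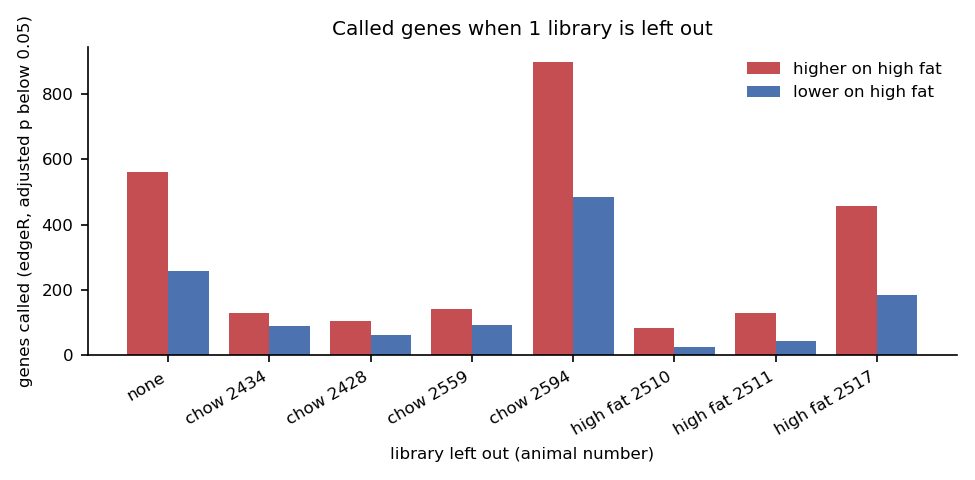
Number of genes called higher (red) or lower (blue) on high fat in male knockouts, on the y axis, with no library or 1 library left out, on the x axis by animal number. The sum is 818 with all 7 libraries, 1384 without chow animal 2594 and 106 without high-fat animal 2510.

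**Figure D2:**
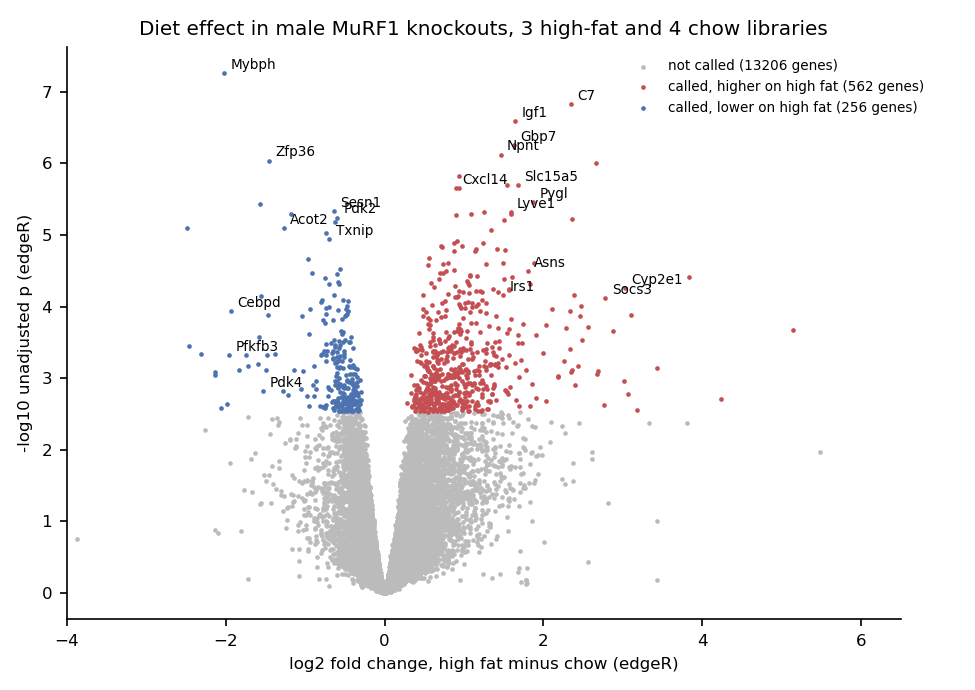
Log2 fold change by diet on the x axis against the unadjusted p of edgeR's test on a -log10 scale on the y axis, 1 point per gene tested, with the 562 genes called higher in red, the 256 called lower in blue and the rest in grey. Mybph has the smallest p of the genes that fell, and C7 and Igf1 lie at the top on the side that rose.

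Genes of insulin and IGF signalling were called in 1 direction: 6 of 32 members rose and 0 fell, where 4.01% of all genes rose. The list's median log2 difference was 0.18. Igf1 (chr10:87858265-87937042), the growth factor itself, stood at 5.88, 3.47, 5.38 and 8.7 CPM on chow and at 23.9, 19.8 and 12 CPM on high fat, here and below scaled by TMM. Every high-fat library was above every chow library, and Igf1 rose by 1.65 ± 0.25 on the log2 scale (adjusted p = 0.0012, edgeR). Irs1 (chr1:82233101-82291416), the insulin receptor substrate, stood at 15.7, 14.7, 12.1 and 15.7 CPM on chow and at 42, 51.9 and 28.7 CPM on high fat. The 4 chow values of Irs1 lie close together and the high-fat values above all of them, at a log2 difference of 1.49 ± 0.31 (adjusted p = 0.0107, edgeR). That call was lost without animal 2511 (adjusted p = 0.062).

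The receptor Igf1r rose by 0.82 ± 0.24, and Pik3r1, the regulatory subunit of PI3 kinase, by 0.65 ± 0.19, both on the log2 scale, and they kept their call in 2 and 1 of the 7 omissions. Igf1r in high-fat animal 2517, at 3.44 CPM, lay below chow animal 2594 at 3.56 CPM. Irs2, a second insulin receptor substrate, read 18.2, 28.6 and 6.37 CPM on high fat against 7.7 to 9.28 CPM on chow, so animal 2517 lay below all chow libraries. Socs3, a feedback inhibitor of cytokine and insulin signalling, shows how 1 library can carry a call. It read 20.6 CPM in animal 2511 against 1.86 and 2.34 CPM in the other high-fat libraries and 0.434 to 1.82 CPM on chow. Without animal 2511 its log2 difference went from 2.78 to 0.79 (adjusted p = 0.247). The number of members of this list called higher ran from 1, without animal 2511, to 6 across the omissions.

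Of genes that answer to PPAR receptors and fasting, 9 of 30 were lower and 0 were higher, where 1.83% of all genes fell. The median was -0.50 against 0.05 over all genes. Acot2 (chr12:83987861-83993873), a mitochondrial enzyme that splits fatty acyl-CoA, stood at 19.6, 18.2, 20.6 and 21.5 CPM on chow and at 7.99, 6.95 and 10 CPM on high fat. The groups lie far apart, and Acot2 fell by 1.26 ± 0.24 on the log2 scale (adjusted p = 0.00416, edgeR), with the call held in all 7 omissions. Acot1, its close paralog with which it may share reads, stood at 2.93 to 4.42 CPM on chow and 0.465 to 1.1 CPM on high fat, at a log2 difference of -2.31 ± 0.58 called in 3 of the 7 omissions. The split of reads between the paralogs is uncertain.

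Pdk4 (chr6:5483351-5496309), which shuts pyruvate dehydrogenase, stood at 777, 1140, 1190 and 1090 CPM on chow and at 235, 519 and 336 CPM on high fat. Every high-fat library was lower, yet the spread between libraries was wide. The log2 difference was -1.53 ± 0.42 (adjusted p = 0.039, edgeR), and the call held in 1 omission, that of chow animal 2594, with adjusted p from 0.0565 to 0.186 in the other omissions. Its relative Pdk2 stood at 629, 643, 634 and 506 CPM on chow and at 392, 410 and 392 CPM on high fat. Pdk2 fell by 0.60 ± 0.11 (adjusted p = 0.00354, edgeR) and was called in all omissions. Txnip, an arrestin that curbs glucose uptake and binds thioredoxin, fell by 0.69 ± 0.13 (adjusted p = 0.00528, edgeR), from 700 ± 62.4 CPM (SD, n = 4) to 433 ± 50.9 CPM (SD, n = 3), also in all omissions.

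Mitochondrial beta-oxidation followed the same direction, with 7 of 28 members lower, 0 higher and a median of -0.33, where 1.83% of all genes fell. Fabp3, the fatty acid binding protein of heart and muscle, stood at 874, 801, 745 and 707 CPM on chow and at 218, 193 and 426 CPM on high fat. The call of Fabp3 held in 2 of the 7 omissions, at a log2 difference of -1.49 ± 0.39 with all libraries (adjusted p = 0.0287, edgeR). Ech1, Eci1 and Eci2, isomerases for unsaturated fatty acids, fell by 0.80, 0.57 and 0.60 on the log2 scale, and Slc25a20, the carnitine-acylcarnitine carrier, by 0.58. They kept their calls in 5, 5, 2 and 2 of the 7 omissions. No member of the beta-oxidation list was called without animal 2510 or without animal 2511, and 10 were without chow animal 2594. For the PPAR list the omissions called 2, without animal 2510, to 9. Fabp3, Ech1, Slc25a20 and Decr1 belong to both lists.

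Of 32 regulators of mitochondrial and lipid genes 3 rose and 0 fell, where 4.01% of all genes rose. The list was balanced, with 16 members above 0, 16 below and a median of -0.006. A receptor and a coactivator of those targets were among the members that rose. Ppara, the receptor of fat oxidation, stood at 3.24, 4.69, 5.9 and 2.85 CPM on chow and at 9.7, 14 and 8.79 CPM on high fat, and Ppargc1a, the coactivator of mitochondrial genes, at 24.4 to 32.7 CPM on chow and 39.3, 85 and 34.2 CPM on high fat. Both lists of values are separate between the diets, and Ppara rose by 1.38 ± 0.38 (adjusted p = 0.0358, edgeR) and Ppargc1a by 0.93 ± 0.25 (adjusted p = 0.0318, edgeR), called in 1 and 2 of the 7 omissions. Across the omissions the log2 difference of Ppargc1a ran from 0.40 to 1.15. Nuclear genes of oxidative phosphorylation had a median of -0.35 and 0 of 46 members higher. Lower were 3 members (Cox5b, Cox6a2 and Atp5d), where 1.83% of all genes fell. These 3 kept their calls in 3, 2 and 1 of the 7 omissions. No member of that list was called without chow animals 2434 or 2428 or without high-fat animals 2510 or 2511, and 8 were without chow animal 2594. Genes of the mitochondrial DNA had 0 of 15 called and a median of 0.08. Glycolysis and glycogen genes had 4 of 35 lower, among them Pfkfb3, the kinase that makes the activator of phosphofructokinase, which read 551 to 918 CPM on chow and 349, 159 and 47.6 CPM on high fat, and was called in 5 of the 7 omissions.

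**Figure D3:**
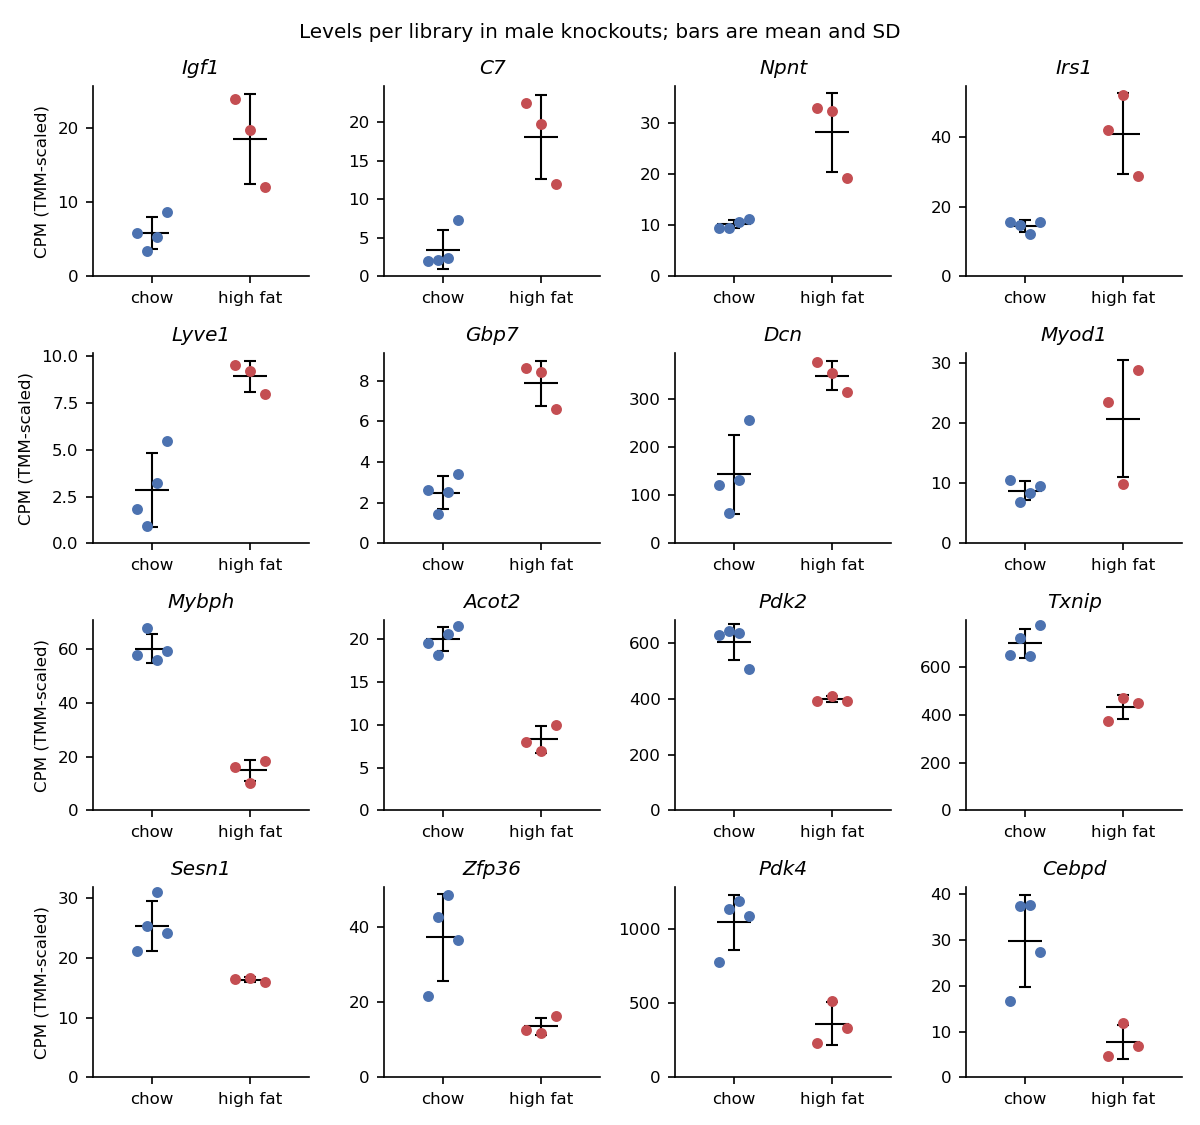
Level in CPM, scaled by TMM, on the y axis for 16 genes in the 4 chow (blue) and 3 high-fat (red) libraries of male knockouts, with the mean and SD as black bars; libraries are drawn in the order 2434, 2428, 2559, 2594 and 2510, 2511, 2517. Mybph and Acot2 separate the diets widely, whereas for Myod1 the high-fat library of animal 2511 lies at 9.94 CPM among the chow libraries.

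Genes that respond to glucocorticoids and FoxO factors had 7 of 32 members lower and 2 higher, with a median of -0.27. Among all genes tested 1.83% fell and 4.01% rose. Sesn1, a stress protein that restrains mTORC1, stood at 21.1, 25.3, 31.1 and 24.1 CPM on chow and at 16.4, 16.7 and 16 CPM on high fat. The high-fat libraries of Sesn1 lie within 1 CPM of each other and below every chow library, at a log2 difference of -0.64 ± 0.12 (adjusted p = 0.00347, edgeR) called in all omissions. Cebpd, a transcription factor of stress and inflammation, stood at 16.6, 37.5, 37.7 and 27.4 CPM on chow and 4.65, 11.8 and 6.89 CPM on high fat. It fell by 1.93 ± 0.42 (adjusted p = 0.0126, edgeR) and lost the call without animal 2510 (adjusted p = 0.0881). Ddit4, an inhibitor of mTORC1, fell by 1.99 and was called in 2 of the 7 omissions, and Sgk1 and Cdkn1a fell by 0.57 and 0.79, both called in 3. The members that rose were Pik3r1 and Bcl6, a transcriptional repressor, which rose by 0.78 ± 0.16 and was called in 6 of the 7 omissions. The number of members called lower fell to 1 without animal 2510.

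Zfp36, whose product speeds the decay of inflammatory mRNAs, fell by 1.45 ± 0.23 (adjusted p = 0.00196, edgeR) in all omissions. It stood at 21.6, 42.5, 48.3 and 36.4 CPM on chow and at 12.7, 11.9 and 16.2 CPM on high fat. Some other immediate early genes rose: Fos read 17, 3.69 and 18.8 CPM on high fat against 1.83 to 3.16 CPM on chow, and Nr4a2 read 6.75, 3.55 and 1.68 CPM against 0.521 to 1.11 CPM. In all, 4 of 24 immediate early genes rose and 1 fell, where 4.01% of all genes rose and 1.83% fell. The call of Fos held in 2 of the 7 omissions. The list was split, with 12 members above 0, 12 below and a median of -0.001.

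Start regions are shown for 3 genes called in every omission. Sesn1 is in the glucocorticoid and FoxO list and Gbp7 in the interferon list. Txnip is in the PPAR and fasting list. The genes were chosen after their values were seen, and only windows with a match are shown. They run from 250 bases before to 50 after an annotated start, 5′ to 3′ on the plus strand, from RefSeq on GRCm38.p6. Capitals mark a match on either strand to the forkhead motif GTAAACA in Sesn1 (chr10:41810324-41810623) and Txnip (chr3:96557707-96558006), and to the interferon-stimulated motif, GAAA and again GAAA after any 2 bases, in Gbp7 (chr3:142530086-142530385).
Sesn1: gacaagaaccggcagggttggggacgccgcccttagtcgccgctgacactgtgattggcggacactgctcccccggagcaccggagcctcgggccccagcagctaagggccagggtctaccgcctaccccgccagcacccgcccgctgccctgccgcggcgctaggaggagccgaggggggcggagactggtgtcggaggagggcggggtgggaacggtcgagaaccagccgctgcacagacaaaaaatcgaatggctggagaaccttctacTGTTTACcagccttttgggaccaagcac
Txnip: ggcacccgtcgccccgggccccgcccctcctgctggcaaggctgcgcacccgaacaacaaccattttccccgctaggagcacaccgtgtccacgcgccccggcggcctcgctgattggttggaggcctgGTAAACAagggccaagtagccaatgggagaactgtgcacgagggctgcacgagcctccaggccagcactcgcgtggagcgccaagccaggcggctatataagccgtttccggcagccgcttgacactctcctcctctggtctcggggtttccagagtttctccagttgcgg
Gbp7: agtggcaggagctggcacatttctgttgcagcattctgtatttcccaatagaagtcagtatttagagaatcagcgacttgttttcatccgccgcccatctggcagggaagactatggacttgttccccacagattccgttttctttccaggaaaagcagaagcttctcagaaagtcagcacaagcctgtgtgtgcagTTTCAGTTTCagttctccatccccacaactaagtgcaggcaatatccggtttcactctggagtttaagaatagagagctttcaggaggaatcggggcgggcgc
The match starts 22 bases after the start in Sesn1, at -121 in Txnip and at -53 in Gbp7. The forkhead motif stood in 3.65% of all 32851 windows of the table, and at least 1 window held it for 10 of the 188 genes that fell and have a window (5.32%) and for 13 of the 438 that rose (2.97%). The interferon motif stood in 3.44% of all windows, and was held by 5 of the genes that fell (2.66%) and 27 of those that rose (6.16%). Among all genes tested that have a window the shares were 3.08% for the forkhead and 3.64% for the interferon motif. Sesn1 has 2 windows in the table, and the one with a match is shown. A match is a description of the letters and no evidence of binding.

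Among contractile genes, a minority of each list was called lower and 0 were called higher, where 1.83% of all genes fell. Mybph (chr1:134193448-134201232), a myosin-binding protein of the thick filament, had the smallest p of the genes that fell. It stood at 58.1, 68.1, 55.9 and 59.3 CPM on chow and at 16, 10.4 and 18.3 CPM on high fat, and fell by 2.02 ± 0.27 (adjusted p = 0.000765, edgeR) in all omissions. The slow fibre list had 3 of 16 lower (Csrp3, Ankrd2 and Myl6b), all 16 below 0 and a median of -0.71. Csrp3 and Myl6b kept their calls in 4 of the 7 omissions and Ankrd2 in 1. No slow fibre member was called without chow animal 2434 or high-fat animals 2510 or 2511, and 6 were without chow animal 2594. The chow libraries of the slow fibre list were far apart among themselves, as the plot of lists by library shows. The fast fibre list had 2 of 14 lower (Atp2a1 and Mylk2) and all 14 below 0, and skeletal actin Acta1 fell by 0.57 ± 0.12 from 41200 ± 4110 CPM (SD, n = 4) to 27800 ± 1140 CPM (SD, n = 3), called in 6 of the 7 omissions. Atp2a1 and Mylk2 kept their calls in 1 and 3 of them. No fast fibre member was called without chow animals 2428 or 2559 or high-fat animals 2510 or 2511, and 4 were without chow animal 2594. The summed level of the muscle fibre identity list was 208000 to 258000 CPM on chow and 171000 to 179000 CPM on high fat.

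Of the proteasome 0 of 34 members were called, with a median of -0.25. Every high-fat library lay below every chow library for 27 of them, and for 13.7% of all genes tested. Of the list of muscle ubiquitin ligases and related genes 0 of 30 were called and the median was -0.03. The values nearest the threshold were those of Klhl41, at -0.38 ± 0.12 (adjusted p = 0.0557), and Trim72, at -0.29 ± 0.10 (adjusted p = 0.0772), in edgeR's test. Small heat shock proteins and chaperones split, with 5 of 32 lower and 3 higher, where 1.83% of all genes fell and 4.01% rose. Hspb6, Hspb7 and Bag3 fell by 0.60, 0.75 and 0.53 (called in 6, 4 and 6 of the 7 omissions). Dnaja1, a partner of HSP70, rose by 0.71. Dnajb1, another partner, also rose, to 16.5 CPM in animal 2510 and 7.02 and 9.23 CPM in the other high-fat libraries from 2.77 to 4.77 CPM on chow. No member of that list was called without animal 2510.

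Of 20 satellite cell and myogenic genes 3 rose and 1 fell, where 4.01% of all genes rose and 1.83% fell. Myod1, the transcription factor that sets muscle identity in satellite cells, rose by 1.24 ± 0.24 (adjusted p = 0.00546, edgeR). It stood at 10.5, 6.83, 8.33 and 9.49 CPM on chow and at 23.5, 9.94 and 28.9 CPM on high fat. The Myod1 level of animal 2511 lies within the chow range, although the call held in every omission. Asns, which makes asparagine, rose by 1.81 ± 0.37 from levels below 1 CPM on chow, 0.203 to 0.791, to 1.47, 2.23 and 2.05 CPM.

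Some genes of the tissue between the fibres rose, most of all among macrophage markers. Over all genes tested 4.01% rose. Of 30 macrophage markers 10 rose and 0 fell, with a median of 0.70. Of 20 markers of fibro-adipogenic progenitors 5 rose, with a median of 0.57, and of 45 other matrix and remodelling genes 8 rose, with a median of 0.51. Collagens had 2 of 25 higher, Col14a1 and Col4a5, each called in 1 of the 7 omissions. In bulk muscle, fewer cells of a type and less RNA per cell cannot be told apart.

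Lyve1 (chr7:110850607-110863239), a hyaluronan receptor of resident macrophages and lymphatic vessels, stood at 1.82, 0.917, 3.21 and 5.46 CPM on chow and at 9.54, 9.18 and 7.99 CPM on high fat. All high-fat libraries were higher, at 1.59 ± 0.29 on the log2 scale (adjusted p = 0.00347, edgeR). F13a1, the macrophage transglutaminase subunit, rose by 1.28 ± 0.25, and the lectin gene Cd209f by 1.51 ± 0.28. Its neighbours in family, Cd209d and Cd209g, rose by 1.57 ± 0.34 and 2.66 ± 0.44, from at most 1.42 and 0.507 CPM on chow. These 3 paralogs are alike in sequence and may share reads. Dcn (chr10:97479609-97518143), the proteoglycan decorin made by fibroblasts, stood at 121, 63.5, 132 and 257 CPM on chow and at 376, 354 and 315 CPM on high fat, and rose by 1.28 ± 0.27 (adjusted p = 0.0118, edgeR). The chemokine gene Cxcl14 rose by 0.90 ± 0.16 in all omissions. Pdgfra, the surface receptor that marks fibro-adipogenic progenitors, read 10, 6.42, 10.8 and 24.2 CPM on chow and 28.9, 28.1 and 21.2 CPM on high fat. The diets overlap there, and its call was kept in 2 of the 7 omissions.

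These lists were low in 3 of the chow libraries and not in the 4th. The macrophage markers summed to 200, 137 and 185 CPM in chow animals 2434, 2428 and 2559, to 331 CPM in chow animal 2594, and to 375, 345 and 279 CPM on high fat. The progenitor markers summed to 607 to 1590 CPM on chow and 1580 to 2090 CPM on high fat, and in male wild types to 1590 to 2230 CPM on chow and 2450 to 2710 CPM on high fat. The knockouts on high fat thus lay in or near the range of wild types on chow, and the knockouts on chow at or below it. Without chow animal 2594, 19 macrophage markers, 12 progenitor markers, 23 matrix genes and 10 collagens were called higher. Without chow animal 2428 the counts were 3, 2, 1 and 0.

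Other cell types were read from their marker lists, whose counts stand beside 4.01% of all genes that rose and 1.83% that fell. Of 13 tendon markers 2 rose, Angptl7 and Fmod, each called in 1 of the 7 omissions, with summed levels of 144 to 203 CPM on chow and 215 to 278 CPM on high fat. Endothelial markers had 2 of 23 higher (Flt1 and Ptprb, called in 4 and 2 of the 7 omissions) and Schwann cell and myelin genes 0 of 16. Adipocyte markers summed to 3260 to 3710 CPM on chow and 2740 to 2950 CPM on high fat, a sum held mostly by Car3, which stood at 2570 to 3010 CPM and 1920 to 2270 CPM. Over the members the direction was the other way: 14 of 20 lay above 0, the median log2 difference was 0.25, and the mean log2 CPM was 2.82 to 3.63 on chow and 3.40 to 4.03 on high fat. Of these 20 genes 1 rose and 1 fell, and the defining Adipoq overlapped between the diets: it stood at 3.87 to 12.9 CPM on chow and at 20.1, 9.66 and 12 CPM on high fat. Cfd, the complement factor D made by adipocytes, read 68.9 and 35.3 CPM in animals 2510 and 2511 and 8.57 CPM in animal 2517, inside the chow range of 4.42 to 9.1 CPM. Markers of epidermis summed to 18.9 to 22.1 CPM on chow and 19.6 to 22 CPM on high fat, with the keratins Krt1, Krt5 and Krt14 at 0 in all 7 libraries. Igkc, an antibody light chain, read 9.15 and 3.34 CPM in animals 2510 and 2511 and at most 0.507 CPM in the others, and was not called (adjusted p = 0.0602, edgeR). The part of any of these cell types in the other results was not tested.

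**Figure D4:**
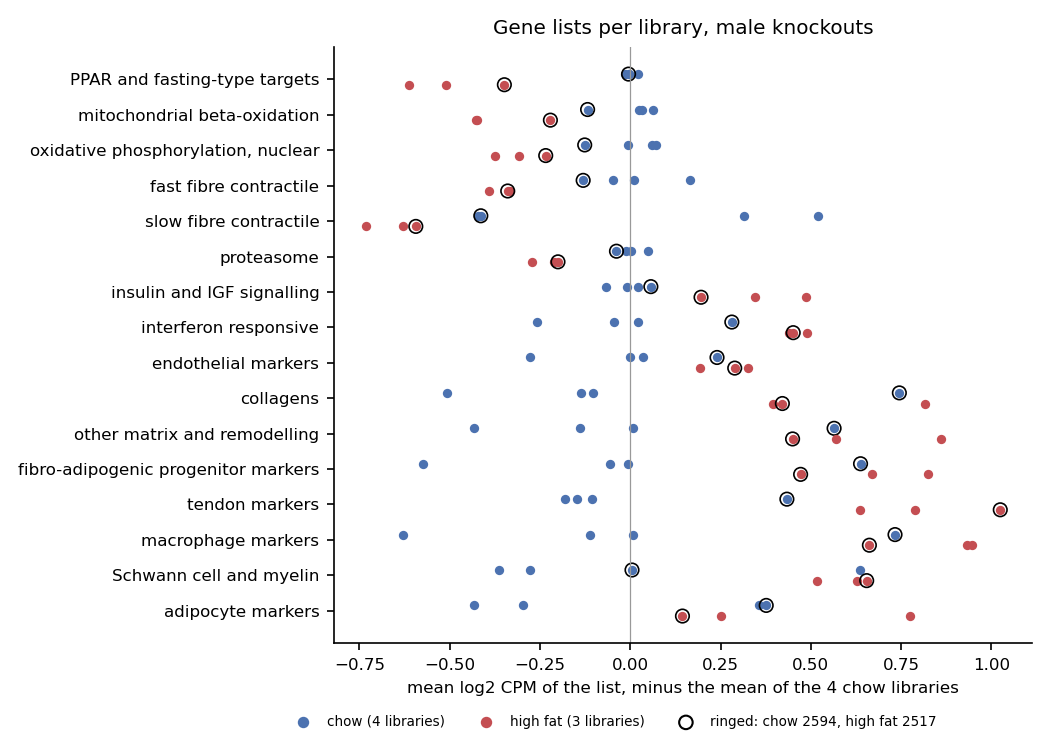
Mean log2 CPM of 16 gene lists (rows) in each library of male knockouts, as the difference from the mean of the 4 chow libraries on the x axis, chow in blue and high fat in red, with chow animal 2594 and high-fat animal 2517 ringed. For the lists of PPAR targets and insulin signalling all 3 high-fat libraries lie outside the chow range, whereas for collagens and matrix chow animal 2594 lies among them.

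The genes with the smallest p among those that rose included C7 and Npnt. C7 (chr15:4988762-5063740), a component of the complement pore, stood at 2.03, 2.14, 2.43 and 7.28 CPM on chow and at 22.5, 19.8 and 12 CPM on high fat. It rose by 2.34 ± 0.34 (adjusted p = 0.00105, edgeR) in all omissions. C3, the central complement protein, rose by 1.59 ± 0.28 in all omissions, from 23.5 ± 8.08 CPM (SD, n = 4) to 71 ± 23.7 CPM (SD, n = 3). Npnt (chr3:132881745-132950291), nephronectin, a matrix ligand of integrins, stood at 9.53, 9.48, 10.6 and 11.2 CPM on chow and at 32.9, 32.3 and 19.3 CPM on high fat. The chow libraries of Npnt hardly vary, and it rose by 1.46 ± 0.23 (adjusted p = 0.00196, edgeR).

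Further genes called in every omission cover several functions. Slc15a5 (chr6:137983586-138079916), a solute carrier, stood at 6.49, 7.95, 9.89 and 9.18 CPM on chow and at 29.5, 24.9 and 26.4 CPM on high fat, a rise of 1.68 ± 0.28. Gbp7, an interferon-induced GTPase, rose by 1.63 ± 0.26 from 1.43 to 3.4 CPM on chow to 6.59 to 8.61 CPM. The interferon list as a whole had 3 of 37 higher and 0 lower, where 4.01% of all genes rose. Gbp7 and B2m were among the 3, with B2m called in 2 of the 7 omissions. Of the list 35 members lay above 0, and the median was 0.39. Pygl, the liver form of glycogen phosphorylase, rose by 1.87 ± 0.33 but stayed at or below 3.34 CPM. The transporter genes Abca6, Abca8a, Abca8b and Abca9, paralogs on chromosome 11, rose by 1.42, 0.91, 0.69 and 1.23. Atp1b2, the beta subunit of the sodium pump, fell by 0.63 ± 0.12, from 354 ± 19.9 CPM (SD, n = 4) to 229 ± 6.6 CPM (SD, n = 3). Eef1a2, the elongation factor of adult muscle, fell by 0.57 ± 0.12.

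Rabep2 and Atcay also fell in every omission, by 1.17 ± 0.21 and 1.56 ± 0.27. Rabep2 overlaps exons of the abundant Atp2a1 on the other strand, Atcay those of Atcayos, and Mybph those of Adora1. Whether the counting used strand is not stated, and reads of such partners cannot be told apart. Atp2a1 itself fell by 0.43 ± 0.12. Of the 128 named genes 18 share exon sequence with another tested gene, 17 of them with one on the opposite strand.

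Some of the largest fold changes rested on few libraries. Cyp2e1, a cytochrome P450, had the largest called increase of the named genes, 3.02 ± 0.61, with 25.4, 21.1 and 5.13 CPM on high fat against 1.12 to 3.09 CPM on chow, and lost its call without animal 2510 (adjusted p = 0.0669). Depp1, a FoxO target, fell by 2.46 ± 0.59, from 25, 39, 41.2 and 41.9 CPM to 4.96, 9.46 and 5.57 CPM, and was called in 3 of the 7 omissions.

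The same diet contrast in male wild types called fewer genes: 23 rose (0.164%) and 26 fell (0.185%). Of the genes called in knockouts, 19 were called in the same direction in wild types, which is 2.32% of the knockout calls and 38.8% of the wild-type calls. They include Mybph, Acot2, Pdk4, Npnt, Slc15a5, Neto2, Atp1b2, Fbp2 and Cdkn1a. Acot2 stood at 21.7 ± 1.85 CPM on chow and 7.91 ± 1.83 CPM on high fat in wild types (SD, n = 4 each), near the knockout levels of 20 ± 1.4 CPM and 8.33 ± 1.57 CPM (SD, n = 4 and 3). Igf1 stood at 9.86 ± 2.08 CPM and 18.3 ± 3.29 CPM in wild types (SD, n = 4 each), at a log2 difference of 0.89 that was not called (adjusted p = 0.0634, edgeR). Pdk4 fell by 1.98 in wild types and by 1.53 in knockouts on the log2 scale. Genes called higher in knockouts had a median of 0.87 there and 0.19 in wild types, and those called lower -0.55 and -0.15. These genes were chosen by their call in knockouts, which favours larger values there. The medians therefore do not compare the strength of the responses. The sign was shared by 80.4% of the called genes and by 62.5% of all genes.

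Some genes called in knockouts had small values in wild types. Zfp36 stood at 13.8 ± 4.31 CPM on chow and 11.5 ± 2.04 CPM on high fat in wild types (SD, n = 4 each), and it was knockouts on chow that were high, at 37.2 ± 11.5 CPM (SD, n = 4). Cebpd, Sesn1, Atcay and Gamt likewise had wild-type log2 differences of 0.06, -0.04, 0.03 and -0.00. The difference between the genotypes itself was tested: 0 genes (0%) passed in edgeR, with 1456 at an unadjusted p below 0.05, and 41 passed in DESeq2. The count in edgeR was 69 without chow knockout 2594 and 43 without the 4th wild-type chow library. A diet effect particular to the knockout was thus not called for any gene in edgeR with all libraries, and the larger count of calls in knockouts does not show one.

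Female knockouts went mostly the other way. No gene checks the diet labels of either sex, and every value that sets males against females rests on those labels. Of the 7 female libraries, that of animal 2413, placed with the knockouts on chow, sits in a record titled female wild type on high fat. With only the libraries whose labels agree, the difference between the sexes below was called in 4704 genes, and with grouping by each record's own title in 5525. In females 1455 genes were higher (10.4%) and 1233 lower (8.79%) on high fat. Markers of epidermis summed to 18.5 to 176 CPM in female knockouts on chow and to 17.3 to 19.2 CPM on high fat. The keratin Krt10, without TMM, read 22.4 and 47.4 CPM in female chow animals 2406 and 2410. It read 1.78 and 1.74 CPM in female chow animals 2409 and 2413, and 1.15 to 2.18 CPM on high fat. Whether such tissue bears on the female values was not tested. Of the genes called higher in male knockouts 217 were called lower in females and 5 higher, and of those called lower 141 were called higher in females and 3 lower. The sign of the diet effect was shared between the sexes by 8.8% of the genes called in males and by 24.7% of all genes. The difference of the diet effect between male and female knockouts was called in 4800 genes, 2552 with a higher value in males (18.2%) and 2248 with a lower value (16%). It was called in the same direction for 529 of the 562 genes that rose in males and 237 of the 256 that fell. That difference contains the male diet effect by which these genes were chosen, so the shared direction is in part built in.

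Igf1 stood at 21.4 ± 4.48 CPM on chow and 9.89 ± 1.65 CPM on high fat in female knockouts (SD, n = 4 and 3), against 5.86 ± 2.16 CPM and 18.6 ± 6.04 CPM in males (SD, n = 4 and 3). Mybph was 164 ± 26.3 CPM on chow and 322 ± 68.2 CPM on high fat in females, and Pdk4 was 223 ± 125 CPM and 700 ± 125 CPM (SD, n = 4 and 3). The diets thus stood in the opposite order in both genes. Acta1 and Pdk2 rose by 0.69 and 0.55 in females, and Lyve1 fell by 1.12. Myod1 rose in both sexes, by 1.02 in females. Sesn1, Zfp36, Txnip, Atcay and Cebpd were not called in females, at log2 differences of -0.07, 0.20, 0.03, -0.18 and -0.09.

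**Figure D5:**
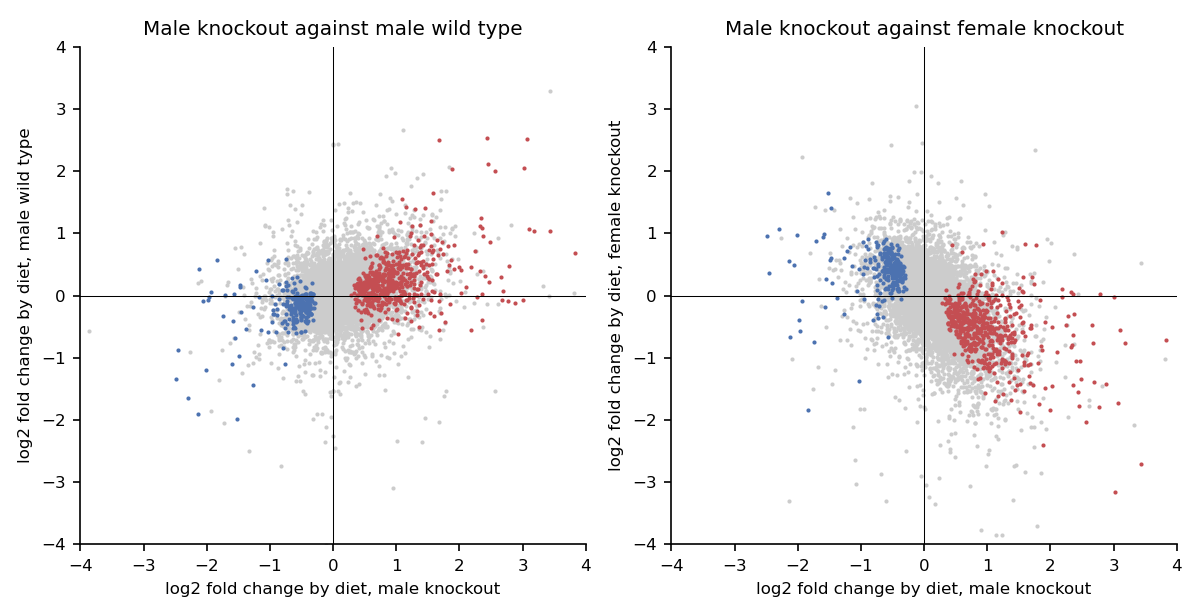
Log2 fold change by diet in male knockouts on the x axis against that in male wild types (left) and female knockouts (right) on the y axis, 1 point per gene, red for genes called higher and blue for genes called lower in male knockouts; axes are limited to values from -4 to 4. The coloured genes lie mainly on matching sides of 0 in the left panel (80.4%) and on opposite sides in the right panel (8.8% on the same side). Over all genes the sign was shared by 62.5% in the left panel and 24.7% in the right.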

How the data were processed

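The values deposited by the authors are raw counts of reads for 39017 Ensembl identifiers in each library. The submitters' processing notes name featureCounts, bcl2fastq and build mm10. Which aligner, annotation release and strand setting were used was not given in the sources used here. Per the labels' protocols, polyadenylated RNA was made into stranded libraries. Symbols and coordinates came from GENCODE M21 (37607 identifiers with a symbol; the others held 0.113% of the counts) and promoters from RefSeq.

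Libraries were grouped by the animal number in the description; 1 library (animal 2509), whose number is in no title, was left out. The other 30 libraries, in 8 groups, were fitted with edgeR 4.0.16 in R 4.3.3 (quasi-likelihood, robust, TMM scaling, filterByExpr with a minimum count of 10), 1 coefficient per group, with 22 residual degrees of freedom and Benjamini-Hochberg adjustment within each contrast at 0.05. Values after ± beside a log2 difference are standard errors, computed as the size of the change over the root of F. The common dispersion of 0.020 corresponds to 14.2% variation between animals. Counts of 3 equal 0.201 to 0.263 CPM in the 7 libraries, and such limits cover counting error only. The lowest chi-square per gene over the 21 pairs of the 7 libraries was 8.25, so no library was a copy of another. The labels name separate animals, which were taken as replicates.

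The members, the 46 gene lists and the tests were chosen with earlier results of these data known. Named genes are Trim63, the 15 largest called increases and decreases whose mean log2 CPM reached 1 and no clone name, up to 5 called members of each list by p (or 2 members of a list with none called), and the 5 largest of each difference. Other named genes were picked after their values were seen, most of them from the 58 called in every omission. Not every gene of the rule is printed. A few results are not reported here. DESeq2 1.42.0, RLE scaling, other filters, other samples and groupings, a replicate block and omission of each library were tried as alternatives. The steps were tested on simulated data.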

Additional observations from a re-analysis of the deposited data

Results flagged for a closer look

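Of 128 named genes checked in the 4 chow libraries, 8 had 1 library far from the other libraries, and chance alone flags about 1 in 20. In chow animal 2594, C7 stood at 7.28 CPM against 2.03 to 2.43, Cd209f at 2.22 CPM against 0.912 to 1.02, Col14a1 at 6.17 CPM against 2.45 to 2.74, Fmod at 47.8 CPM against 27 to 29.7, and Pdk2 at 506 CPM against 629 to 643. For these 5 genes that library lay on the side of the high-fat libraries. In chow animal 2434, Depp1 stood at 25 CPM against 39 to 41.9 and Myl6b at 13.7 CPM against 9.89 to 10.1. In chow animal 2428, Ddx3y stood at 37.6 CPM against 40.8 to 41.1.

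The diet effect differed between male and female knockouts in 4800 genes by a test of the difference in edgeR. Ranked over called genes whose mean log2 CPM reached 1, with clone and pseudogene names passed over, the largest differences of the log2 diet effect, male minus female, after Mup10 were 6.18 for Cyp2e1, 4.23 for Cfd, 4.18 for Kera and 3.83 for Chrdl1 on the higher side. On the lower side they were -3.18 for Pdk4, -2.99 for Mybph, -2.83 for Depp1, -2.69 for Chrna2 and -2.40 for Angptl4. Below that mean level Acot1, at -3.38, and Igkc, at 4.83, also differed. Mup10 itself had a fitted difference of 7.54, but it was at 0 in all 4 male chow libraries and at most 0.904 CPM on high fat, so that value depends on the small count added in the fit.

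The library left out because its animal number is in no title had 107 CPM of Trim63, in a record titled male knockout on high fat. The knockout libraries had 0.469 to 6.24 CPM.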

How the results depend on the processing

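The 818 called genes became 1236 with DESeq2, 478 with every gene of at least 1 count tested (24740 genes), and 2295 in the fit to the 2 groups alone. They were 787 with RLE scaling, 781 with a minimum count of 50, 826 with male groups only, 987 with libraries grouped by their own title and 736 with agreeing labels only. Omission of 1 library gave 106 to 1384. Of the 818 genes, 790 were also called by DESeq2, 760 with RLE scaling, 674 in the 2 groups alone, 601 with grouping by own title and 515 without animal 2517. At most 2 of them changed sign in any omission.

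The difference between genotypes went from 0 to 41 genes with DESeq2 and 0 to 69 over the omissions. The difference between male and female knockouts, 4800 genes, ran from 2812 to 5067 over the omissions. With the replicate block the counts were 638, 0 and 5057; deviations of same-numbered libraries correlated at 0.026, 0.101 and 0.071, so the libraries share only a number. The number of called members moved by over 1.5 times in some omission for 41 of the 46 lists. The cause of these shifts was not tested. With 3 high-fat libraries, genes missing the threshold are not shown to be equal.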
